A study of Mus musculus with 9 samples.

Results

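The 5 miRNAs described here are mmu-miR-1224-5p, mmu-miR-5126, mmu-miR-8110, mmu-miR-8117 and mmu-miR-709, written below without the species prefix and found by name among the 1881 mouse miRNAs of the array. They were chosen by their measured values, namely a high mean signal over all 9 arrays, from outside a set of miRNAs whose signal was higher at the irradiated doses. Their signal, their share of the signal and their small dose differences are therefore given as descriptions, with no test. All 5 were detected on every array, as were 28 of the 1881 miRNAs.

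Osteoblastic cells derived from bone marrow gave the RNA, and the donors were C57BL/6 male mice 8 weeks of age. The marrow cells of every group had 7 days of culture, followed by 7 days in a medium with β-glycerol phosphate, ascorbic acid 2-phosphate and dexamethasone. The 3 groups were unirradiated cells (0 Gy) and cells given 0.5 Gy or 1 Gy of alpha particles at 0.22 Gy per minute, with 3 one-colour arrays each. Whether arrays of one dose stand for different animals or cultures is not stated, so the spread behind p-values and SDs could be a technical one. How long after irradiation the RNA was taken is likewise not stated in the labels.

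A miRNA is a short RNA that is cut from a hairpin and guides silencing of messenger RNAs, which it finds mainly by pairing through its seed, bases 2 to 8. miR-1224-5p comes from a mirtron, a short intron that folds into the hairpin itself and is released by splicing. miR-709 has been described in the nucleus of mouse cells, where it acts on the primary transcript of the miR-15a and miR-16-1 genes. No role is given for miR-5126, miR-8110 and miR-8117. An array reports the brightness of probes that pair with each miRNA, and probes differ in how brightly they report the same amount of RNA, so a high signal is not a measure of copies per cell.

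The mature sequences are shown because the letters of these miRNAs were not part of how they were picked. They are RefSeq's, on build GRCm38.p6, from 5′ to 3′ with the seed in capitals.
miR-1224-5p: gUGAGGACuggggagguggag
miR-5126: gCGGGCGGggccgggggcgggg
miR-8110: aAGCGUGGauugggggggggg
miR-8117: gCUCGUGUggaacagaagggg
All 4 lie on the plus strand. miR-1224-5p is at chr16:20604452-20604472, within the gene Vwa5b2. miR-5126 is at chr1:84695890-84695911, within Dner. miR-8110 is at chr8:89024791-89024811, in no other gene of the table, between Cyld and Sall1. miR-8117 is at chr5:50252823-50252843, within the long noncoding RNA gene Gm40301. The gene of miR-709 lies within Rfx1. These are overlaps of whole gene spans, and exons and introns were not separated.

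No 2 of the 4 printed miRNAs shared a seed, and none shared its seed with any other of the 1608 array miRNAs matched to a RefSeq sequence. Guanine made up 61.9% of miR-1224-5p, 77.3% of miR-5126, 66.7% of miR-8110 and 47.6% of miR-8117. The median was 26.3% over the 1608 matched miRNAs and 38.6% over the 18 other matched miRNAs detected on all 9 arrays. The motif GGGG, searched on the miRNA strand alone, was present in 4 of the 4, in 11.3% of the 1608 and in 16.7% of the 18. The longest unbroken run was 10 guanines, at the 3′ end of miR-8110. Over the 22 matched miRNAs detected on all arrays, guanine content and mean log2 signal had a Pearson r of 0.59 and a Spearman rho of 0.55, against 0.14 and 0.20 for guanine plus cytosine. The 22 include the 4 printed miRNAs, which were picked for their high signal, so the correlations are not independent of that choice. They are descriptions over miRNAs that share the same arrays and labelling, and the part of base composition in the signal was not tested.

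Some properties of the arrays bear on the values that follow. The summed intensity of all detected miRNAs was 228728 on 0 Gy array 1 and 78422 on 0.5 Gy array 1, against 26144 to 51089 on the other 7. The scanner software's additive error was 19.4 on 0.5 Gy array 1 and 11.2 on 1 Gy array 1, against 1.60 to 2.83 on the others. Of 10 listed stromal and osteoblast lineage miRNAs, 5 were detected on any array and 1, miR-125b-5p, on all 9, while miR-143-3p and miR-145a-5p were detected on none. Of the lists for other cells, 2 of 5 myeloid and 1 of 2 lymphoid miRNAs were detected, and none of 3 erythroid and platelet or of 2 endothelial ones. Over the whole array, 446 of 1881 miRNAs were detected on any array and 28 on all 9. The stromal list took 0.0678% to 3.84% of the signal at 0 Gy, 0.380% to 3.62% at 0.5 Gy and 1.11% to 3.27% at 1 Gy, with the lowest of all on 0 Gy array 1. On that array miR-494-3p alone took 54.7% of the signal, and its part in the stromal share was not tested. In such bulk samples, fewer cells of a type and less RNA per cell cannot be told apart.

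After the scaling described below, the 5 miRNAs divided by how they read on a single array. On 0 Gy array 1, miR-1224-5p and miR-8117 stood 2.07 and 2.43 log2 units above the median of the other 8 arrays. On the same array miR-5126 was 0.42 and miR-8110 0.27 below that median, and miR-709 was 0.13 above it. The scale factor of this array was 1.93, against 0.81 to 1.07 on the others. It was set there by a probe of miR-7042-5p, itself 2.70 log2 units above its median of the other 8. Unscaled, miR-5126, miR-8110 and miR-709 were highest on this array, at 2491, 2471 and 2199 against at most 1822, 1936 and 1411 elsewhere. Over the other 8 arrays the range from lowest to highest was 0.43 log2 units for miR-1224-5p, 0.42 for miR-5126, 0.87 for miR-8110, 0.51 for miR-8117 and 1.16 for miR-709.

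Signals here are in log2 of the scaled intensity, in which each array was divided by the 75th percentile of the probes detected on every array and the probes of a miRNA were added. The signal of miR-1224-5p on arrays 1 to 3 was 13.20, 11.14 and 11.19 in unirradiated cells, 11.11, 10.84 and 11.27 after 0.5 Gy, and 11.27, 10.99 and 10.89 after 1 Gy. Apart from 0 Gy array 1, the 3 doses overlapped. The mean at 0 Gy was 11.84 ± 1.17, that at 0.5 Gy 11.08 ± 0.22, and that at 1 Gy 11.05 ± 0.20 (SD, n = 3).

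The signal of miR-8117 on arrays 1 to 3 was 12.46, 10.34 and 10 in unirradiated cells, 10.07, 9.83 and 9.95 after 0.5 Gy, and 10.26, 10.06 and 9.93 after 1 Gy. As for miR-1224-5p, 0 Gy array 1 was the single high value and the other arrays of the 3 doses overlapped. The means were 10.93 ± 1.33, 9.95 ± 0.12 and 10.09 ± 0.17 (SD, n = 3).

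The signal of miR-5126 on arrays 1 to 3 was 10.34, 10.80 and 10.94 in unirradiated cells, 10.67, 10.68 and 10.81 after 0.5 Gy, and 10.90, 10.70 and 10.52 after 1 Gy. The lowest and the highest of its 9 scaled values were both at 0 Gy. The lowest was on 0 Gy array 1, where its unscaled intensity was its highest. The means were 10.69 ± 0.32, 10.72 ± 0.08 and 10.71 ± 0.19 (SD, n = 3).

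The signal of miR-8110 on arrays 1 to 3 was 10.32, 11.05 and 10.87 in unirradiated cells, 10.53, 10.60 and 10.96 after 0.5 Gy, and 10.58, 10.45 and 10.18 after 1 Gy. Its doses overlapped, with the lowest value at 1 Gy and the highest at 0 Gy. The means were 10.75 ± 0.38, 10.70 ± 0.23 and 10.40 ± 0.20 (SD, n = 3).

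The signal of miR-709 on arrays 1 to 3 was 10.16, 10.59 and 10.23 in unirradiated cells, 9.84, 10.02 and 10.33 after 0.5 Gy, and 10.04, 9.98 and 9.43 after 1 Gy. All 3 arrays of 1 Gy lay below all 3 of 0 Gy, while 0.5 Gy overlapped both. The means were 10.33 ± 0.24, 10.06 ± 0.25 and 9.81 ± 0.33 (SD, n = 3).

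**Figure D1:**
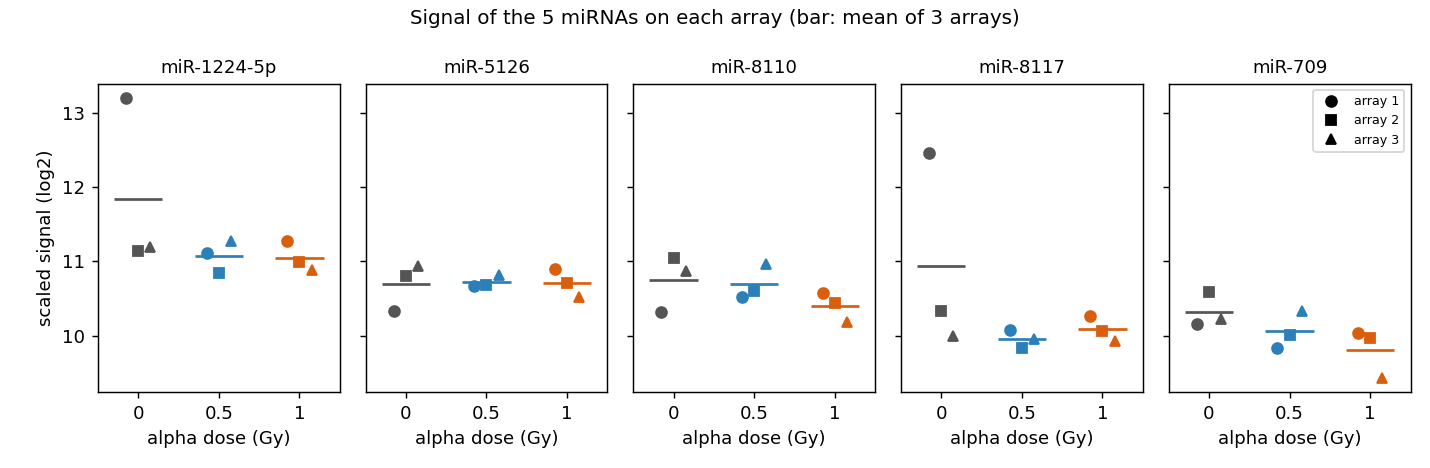
Scaled signal (log2) of each miRNA against alpha dose in Gy, 1 point per array, with marker shape for the array number and a bar at the mean of 3 arrays. For miR-1224-5p and miR-8117 the circle of 0 Gy array 1, at 13.20 and 12.46, stands above all other points.

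In the order of mean log2 signal over 9 arrays, miR-494-3p came first at 11.49, followed by miR-1224-5p at 11.32 and miR-3473b at 10.88. miR-5126 at 10.71, miR-8110 at 10.62 and miR-8117 at 10.32 held places 4 to 6. miR-3960 at 10.31 and miR-6366 at 10.22 came before miR-709 at 10.07, and miR-7005-5p at 10.01 stood just below it. Each gap between neighbours in this order was smaller than the larger of their SDs over 9 arrays, and the order of brightness is not an order of abundance. Without 0 Gy array 1, miR-1224-5p moved to place 1 and miR-8117 to place 9, and miR-7005-5p to place 12.

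The limma fit over 9 arrays gave the dose differences of the 5, whose SEs and 95% intervals describe precision and test nothing, since dose values entered the choice of the 5. For 0.5 Gy against 0 Gy the log2 difference was -0.77 (SE 0.58, 95% interval -2.06 to 0.53) for miR-1224-5p and -0.98 (SE 0.62, -2.37 to 0.41) for miR-8117. Without 0 Gy array 1 these became -0.09 (-0.96 to 0.78) and -0.22 (-1.08 to 0.65). The difference was 0.03 (SE 0.39, -0.84 to 0.89) for miR-5126, -0.05 (SE 0.40, -0.96 to 0.85) for miR-8110 and -0.26 (SE 0.40, -1.16 to 0.64) for miR-709. Without that array miR-5126 turned to -0.15 and miR-8110 moved to -0.27.

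For 1 Gy against 0 Gy the log2 difference was -0.79 (95% interval -2.09 to 0.50) for miR-1224-5p and -0.85 (-2.23 to 0.54) for miR-8117, and -0.12 and -0.08 without 0 Gy array 1. It was 0.01 (-0.85 to 0.88) for miR-5126, -0.35 (-1.25 to 0.56) for miR-8110 and -0.51 (-1.41 to 0.39) for miR-709. Without 0 Gy array 1 these became -0.16, -0.56 and -0.60. For 1 Gy against 0.5 Gy the 5 differences ran from -0.29 for miR-8110 to 0.13 for miR-8117.

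**Figure D2:**
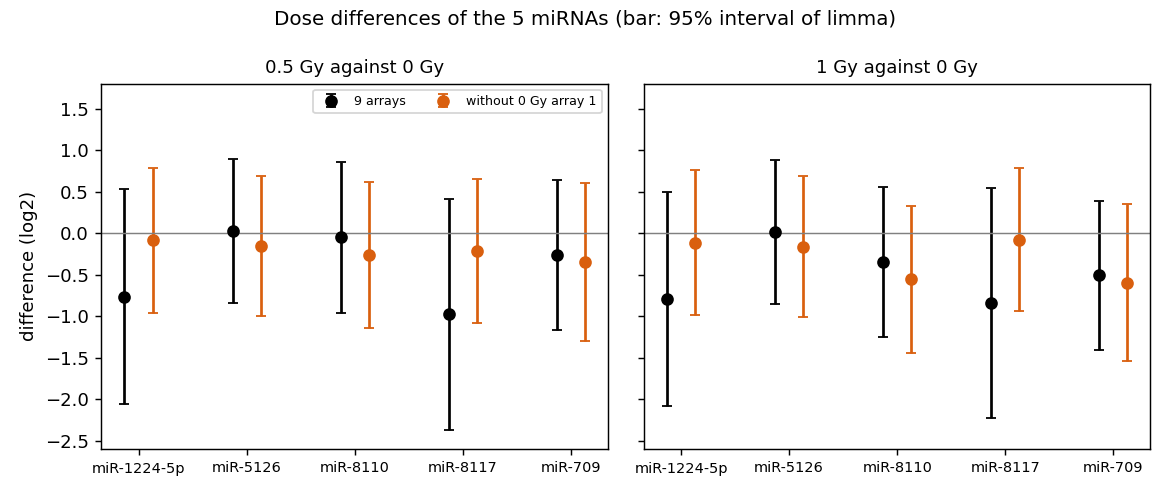
Difference in log2 signal against 0 Gy for each miRNA, with 95% intervals of limma, in the fit of 9 arrays (black) and without 0 Gy array 1 (orange). Intervals show precision and are no test, and the values of miR-1224-5p and miR-8117 move from -0.77 and -0.98 to -0.09 and -0.22 at 0.5 Gy.

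Over all 134 miRNAs tested, limma with Benjamini-Hochberg adjustment called 0 in each of the 3 comparisons (0%). At an unadjusted p under 0.05 it counted 2 for 0.5 Gy against 0 Gy, 4 for 1 Gy against 0 Gy and 0 for 1 Gy against 0.5 Gy. For 0.5 Gy against 0 Gy, 4 of the 5 were lower, with a median of -0.26, and 96 of the 134 were lower, with a median of -0.47. For 1 Gy against 0 Gy, 4 of the 5 were lower with a median of -0.51, and 100 of the 134 with a median of -0.49. Among the 28 detected on all 9 arrays, to which the 5 belong, 14 were lower at 0.5 Gy, with a median of 0.01, and 13 at 1 Gy, with a median of 0.14. These comparisons share the 0 Gy arrays. Of the 134, 7.46% had all 1 Gy arrays below all 0 Gy arrays, and miR-709 was the 1 of the 5 that did. All 1 Gy arrays lay above all 0 Gy arrays for 2.24% of the 134, and above all 0.5 Gy arrays for 0.746%, with none of the 5 in either count. All 0.5 Gy arrays lay below all 0 Gy arrays for 2.99%, again with none of the 5.

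The share of an array's summed signal needs no scaling between arrays. Together the 5 took 15.8%, 31.4% and 26.9% on the unirradiated arrays 1 to 3. They took 7.91%, 21.2% and 27.4% after 0.5 Gy and 18.6%, 14.9% and 18.2% after 1 Gy. The dose means were 24.7% ± 8.05, 18.8% ± 9.93 and 17.2% ± 2.00 (SD, n = 3), and the ranges of the doses overlapped. The overlap of 0 Gy with 1 Gy rested on 0 Gy array 1: without that array the 0 Gy shares were 26.9% and 31.4%, against 14.9% to 18.6% at 1 Gy. The 0.5 Gy shares overlapped both. The lowest share was on 0.5 Gy array 1, the array with the largest additive error, and its part in that share was not tested.

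On 0 Gy array 1, miR-494-3p alone took 54.7% of the summed signal. There miR-1224-5p took 7.93% and miR-8117 4.74%, close to their 7.89% and 4.51% on 0 Gy array 2, although their unscaled intensities were 18136 and 10851 against 2063 and 1180. miR-5126 took 1.09% on 0 Gy array 1 against 6.24% and 6.31% on the other 0 Gy arrays. miR-8110 took 1.08% against 7.41% and 6.00%, and miR-709 took 0.962% against 5.40% and 3.84%. With miR-494-3p left out of the sum, miR-1224-5p took 17.5% and miR-8117 10.5% on this array. The joint share of the 5 there was then 34.9%, and it ran from 28.1% to 34.9% at 0 Gy, 8.14% to 28.7% at 0.5 Gy and 15.6% to 19.7% at 1 Gy, so that 0 Gy and 1 Gy did not overlap. A share also depends on the summed intensity. On arrays 1 to 3 this was 228728, 26144 and 28873 at 0 Gy and 35906, 51089 and 36601 at 1 Gy. miR-3473b, outside the 5, took 0.990%, 2.53% and 3.61% at 0 Gy and 3.63%, 17.1% and 13.3% at 1 Gy. The part of the other miRNAs in the shares at 1 Gy was not tested. Signal chose the 5, from outside the miRNAs higher at the irradiated doses, so these shares are descriptions.

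**Figure D3:**
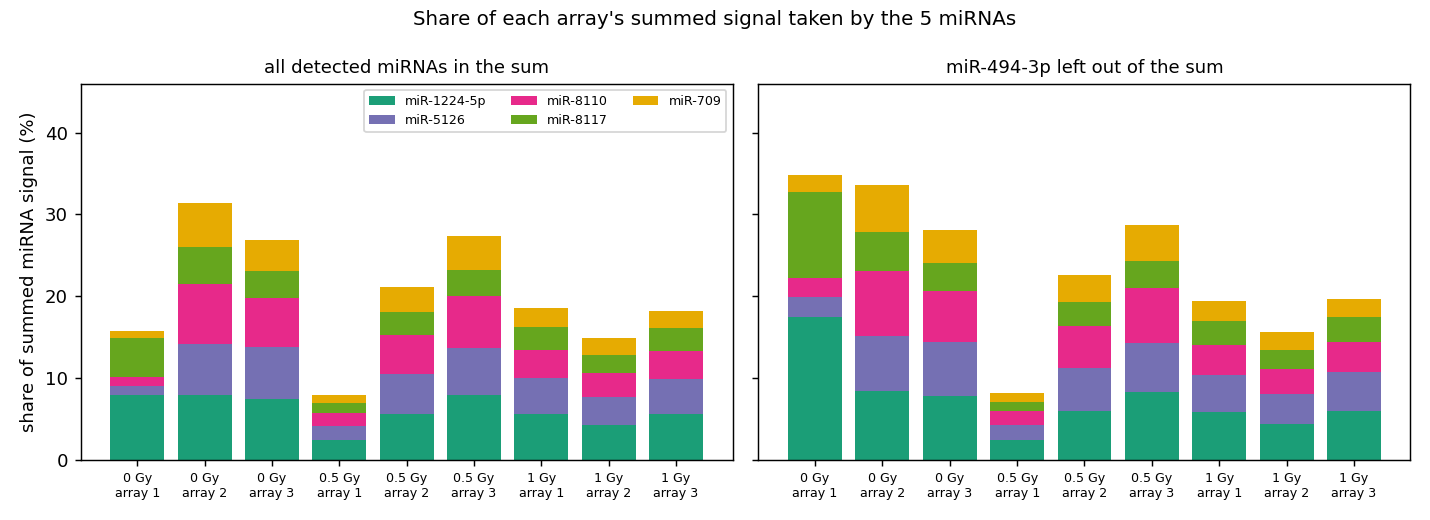
Share of the summed signal of detected miRNAs, in percent, stacked for the 5 miRNAs on each array, with all miRNAs in the sum (left) and with miR-494-3p left out of it (right). The joint share runs from 7.91% on 0.5 Gy array 1 to 31.4% on 0 Gy array 2, and the bar of 0 Gy array 1 is taller on the right.

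The pairs could also be read as differences within an array, where the scaling cancels. miR-1224-5p minus miR-8117 had an SD of 0.18 log2 units over 9 arrays, and miR-8110 minus miR-709 one of 0.17. miR-1224-5p minus miR-5126 had an SD of 0.85 over 9 arrays and 0.10 over the 8 without 0 Gy array 1. Its value on 0 Gy array 1 was 2.86, against 0.16 to 0.46 on the others.

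Among the other miRNAs detected on all arrays, miR-7042-5p and miR-494-3p had the patterns most like miR-1224-5p (Pearson r of 0.95 and 0.93 over 9 arrays) and miR-8117 (0.99 and 0.96). For miR-1224-5p the Spearman rho was 0.13 and -0.20, so the likeness rested on 0 Gy array 1, where miR-494-3p read 15.99. For miR-8117 the rho was 0.77 with miR-7042-5p and 0.18 with miR-494-3p. Without 0 Gy array 1 the nearest to miR-1224-5p was miR-3960, at 0.58. The nearest to miR-709 and to miR-8110 was miR-3960 over 9 arrays (0.80 and 0.73) and over 8 (0.80 and 0.81). miR-2137 (0.67) and let-7a-5p (0.58) were nearest to miR-5126 over 9 arrays, and miR-3960 (0.53) and miR-7047-5p (0.51) over 8. For miR-8117 the nearest over 8 arrays was still miR-7042-5p, at 0.75. These points share arrays and scaling, and the values are descriptions.

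The spread within doses, as the pooled SD of log2 signal, was 0.22 for miR-5126, 0.28 for miR-709, 0.28 for miR-8110, 0.70 for miR-1224-5p and 0.78 for miR-8117. From the lowest, these were places 2, 4, 5, 13 and 14 among the 28 miRNAs detected on all arrays, whose median was 0.81. Without 0 Gy array 1 the median was 0.48, and miR-8117 and miR-1224-5p had 0.17 and 0.19, in places 3 and 5. miR-5126 then had 0.14 in place 2, miR-8110 0.20 in place 6 and miR-709 0.29 in place 9.

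The scaling drew on these same miRNAs. Of the 45 probes detected on every array and used to scale, 10 were theirs, and one of their probes was itself the 75th percentile on 3 of the 9 arrays. Scaled on the other 35 probes, the spread was 0.44 for miR-5126, 0.52 for miR-8110, 0.50 for miR-709, 0.61 for miR-1224-5p and 0.69 for miR-8117, against a median of 0.70. With no scaling at all it was 0.21 for miR-5126, 0.24 for miR-8110 and 0.37 for miR-709, places 1, 2 and 4 of 28, against a median of 1.00. miR-1224-5p and miR-8117 then had 1.05 and 1.13. The low places did not hold in every scaling or in every set of arrays. For miR-5126, miR-8110 and miR-709 they were 4, 7 and 6 when scaled on the other 35 probes. They were 12, 18 and 19 when scaled on all probes, and 8, 11 and 9 after quantile normalization, where miR-1224-5p was in place 22. Without 0.5 Gy array 1, the places of miR-5126, miR-8110 and miR-709 were 4, 7 and 5. Without array 1 of 0.5 and 1 Gy, added after seeing the data, these were 11, 14 and 7.

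**Figure D4:**
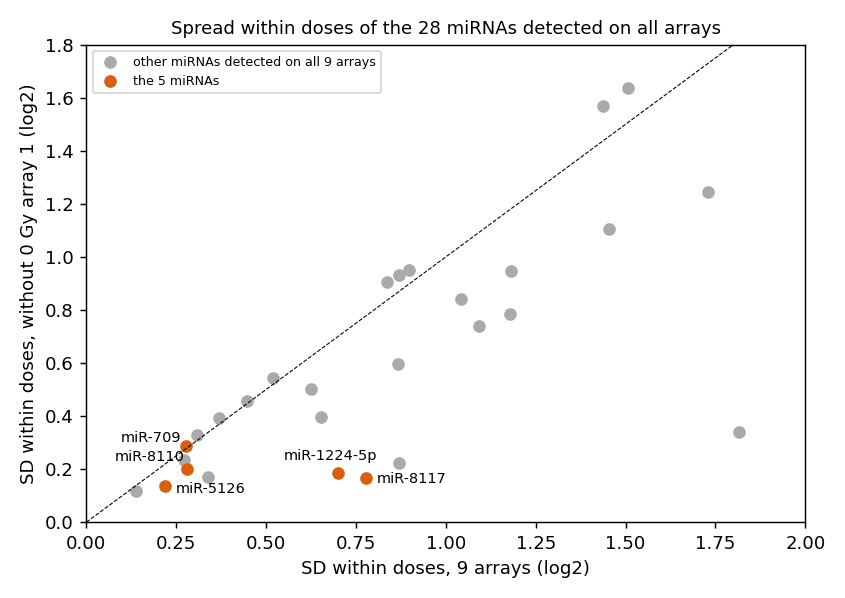
Pooled SD of log2 signal within doses over 9 arrays (horizontal) against the same without 0 Gy array 1 (vertical), for the 28 miRNAs detected on all arrays. The dashed line marks equal values, and miR-1224-5p and miR-8117 lie well below it, at 0.70 and 0.78 against 0.19 and 0.17.

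Each of the 5 was read by 2 probes with 15 spots each, 1350 spots over the 9 arrays. Of these, 22 were marked as outliers by the scanner software, and all 1328 others were well above background. The spots of a probe agreed closely, with a median coefficient of variation of 2.39% and a range of 1.13% to 5.38% over 90 pairs of probe and array. One marked spot of the dimmer miR-8117 probe on 1 Gy array 1 read 182801, against 134 to 154 for the 14 others. With marked spots kept, the 1 Gy against 0 Gy difference of miR-8117 turned from -0.85 to 0.39.

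The 2 probes of a miRNA differed in brightness by an amount that depended on the miRNA. The brighter probe of miR-8110 read 1.02 times the dimmer one (geometric mean, range 1.01 to 1.05 over 9 arrays), and that of miR-5126 1.09 times (1.03 to 1.12). The ratio was 1.94 for miR-1224-5p (1.65 to 2.15), 3.44 for miR-709 (2.81 to 4.18) and 4.95 for miR-8117 (3.65 to 6.52). On 0 Gy array 1 both probes of miR-1224-5p were high, at 11297 and 6839 against at most 1507 and 783 elsewhere. Both probes of miR-8117 were high there too, at 8728 and 2123 against at most 967 and 245.

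The log2 ratio of the 2 probes was not used in picking the miRNAs, so it was tested. Its SD over 9 arrays was 0.03 for miR-8110, 0.04 for miR-5126, 0.12 for miR-1224-5p, 0.18 for miR-709 and 0.26 for miR-8117, which was the largest of the 17 miRNAs with 2 such probes (median 0.06). Between doses limma's F test called 0 of the 17 (0%), with 1, miR-6366, at an unadjusted p under 0.05. The adjusted p was 0.99 for each of the 5. The largest shifts among them were for miR-8117 at 0.5 Gy (0.23, SE 0.20) and miR-709 at 0.5 Gy (0.22, SE 0.13). On the slide that held 6 arrays the mean log2 ratio was 2.42 for miR-8117 and 1.86 for miR-709. It was 2.08 and 1.63 on the 3 arrays of the other slides. The ranges overlapped, at 2.04 to 2.71 against 1.87 to 2.19 for miR-8117 and 1.64 to 2.06 against 1.49 to 1.79 for miR-709. Both had their highest ratio on 0.5 Gy array 1, the array of largest additive error. The other slides held array 2 of each dose, so slide and array number cannot be told apart, and neither part was tested.

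**Figure D5:**
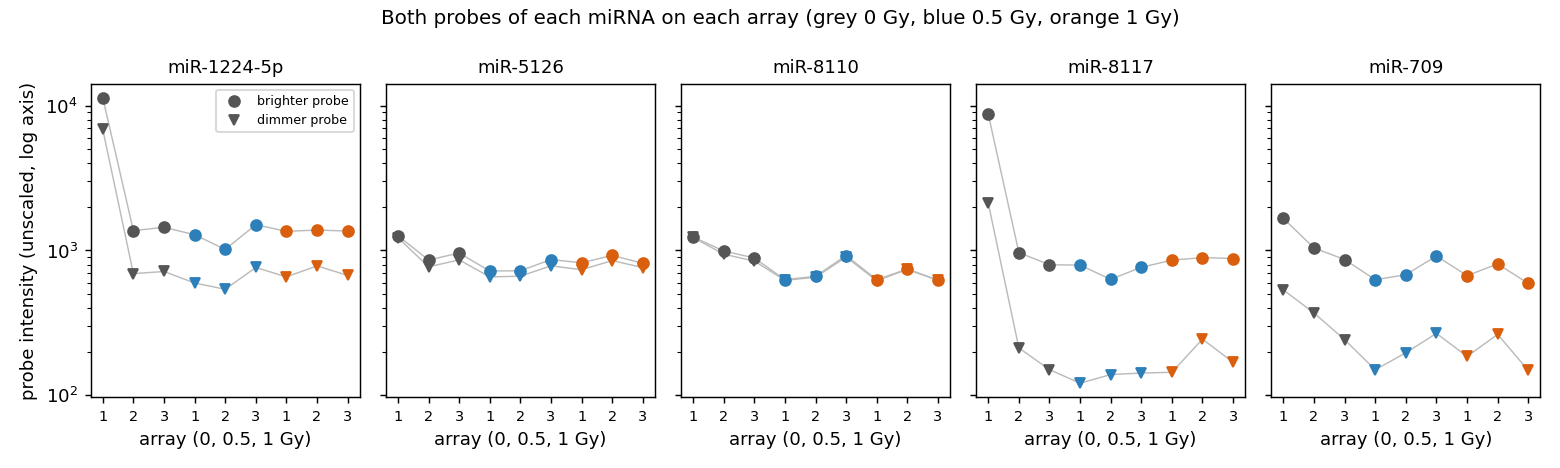
Unscaled mean intensity (log axis) of the brighter and the dimmer probe of each miRNA on each array, in the order 0, 0.5 and 1 Gy. The probes of miR-8110 overlie each other, while those of miR-8117 stand 3.65 to 6.52 times apart.

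The hairpin of miR-1224 also gives miR-1224-3p, which the array carries. It is shown because the array has probes for both arms, as RefSeq's sequence at chr16:20604452-20604536 (plus strand, GRCm38.p6) with both mature arms in capitals.
Mir1224 hairpin: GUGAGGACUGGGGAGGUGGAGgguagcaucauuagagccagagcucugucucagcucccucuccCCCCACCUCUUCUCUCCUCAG
It begins with GU and ends with AG, the letters that bound most introns. miR-1224-3p was detected on 3 of 9 arrays, at 8.49 on 0.5 Gy array 1, 7.23 on 1 Gy array 1 and 3.55 on 0 Gy array 1. It did not meet the rule for detection on the other 6. The call on 0 Gy array 1 rested on 8 of 15 spots of a single probe. On 1 Gy array 3, where it was not called, it read 4.09, with 3 spots of that probe well above background. The 2 higher values were on the arrays of largest additive error, whose part was not tested. On 0 Gy array 1, where miR-1224-5p was highest, miR-1224-3p was near the floor of 3.52.

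The miR-15/16 family was set beside miR-709. Of its 6 members, 3 were detected on any array and none passed the filter for testing. Of all 1881 miRNAs, 446 were detected on any array and 134 passed that filter. miR-15b-5p was detected on 6 arrays, and miR-16-5p and miR-497a-5p on 4 each. miR-15b-5p ranged from the floor of 3.52 on 0 Gy array 1 to 7.79 on 0 Gy array 3, and miR-15a-5p was not detected on any.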

How the data were processed

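The authors deposited 1 scanner file per array with an intensity for every spot, which Agilent Feature Extraction 11.5.1.1 had background-subtracted, per the file headers. No scaling between arrays had been applied to it. A series-wide table was left out, since its 9 value columns match no sample title. Outlier spots were left out and none was saturated. A probe's value averaged its spots' processed intensity, and it was detected when at least 50% were well above background. Arrays were scaled on the 75th percentile over 45 probes detected on all 9 arrays. A miRNA was the sum of its probes, with a floor of 11.5 scaled units (1st percentile of detected values), as log2. limma 3.58.1 (R 4.3.3, two-sided, Benjamini-Hochberg, 0.05) was fitted over 9 arrays to 134 miRNAs, those detected on every array of 1 dose or more. The scripts were tested on simulated data, in which the changes were of 4 or 6 log2 units.

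The miRNAs and lists were chosen with earlier results of these data known. Named were the 5, the other 5 of the 10 brightest, the other hairpin arm, the 2 most alike miRNAs for each, and detected members of the miR-15/16 and marker lists. Replicate numbers come from the titles. Same-numbered arrays of 0.5 and 1 Gy deviated together from their dose means (r of 0.59 to 0.84 in 3 of 3 pairs). The largest r was for the arrays of high additive error. Differently numbered arrays 2 and 3 of these doses had r of 0.58 and 0.55, and arrays 2 of both shared a slide. Whether the numbers pair these doses therefore cannot be told. Same-numbered arrays of 0 Gy and either dose did not deviate together (1 of 6 pairs above 0.1). Alternatives were other scalings, quantile normalization, normexp (offset 50, on median spot signal, since no mean column was present), other probe summaries, filters, replicate and slide blocks, and leaving out each array. Added after seeing the data were the fits without array 1 of every dose, without array 1 of 0.5 and 1 Gy, with outlier spots kept, and of 0.5 and 1 Gy alone with the replicate block. Sequences matched for 1608 of 1881 miRNAs by name, 4 of the 5 among them. The array headers name build mm9, and coordinates are those of the sequence table. The number of arrays limits the precision.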

Additional observations from a re-analysis of the deposited data

How the results depend on the processing

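The median within-dose spread of the 5 miRNAs was 0.28 log2 units. It was 2.12 when arrays were scaled on all probes, 0.52 when scaled without the 5 miRNAs' probes, 0.63 after quantile normalization and, added after seeing the data, 0.57 without array 1 of 0.5 and 1 Gy. Leaving out 1 array gave 0.19 (without 0 Gy array 1) to 0.47 (without 0.5 Gy array 1). The count of miRNAs called was 0 in each dose comparison and for the probe ratio under every alternative run, and with the replicate block it was 0, with 5, 7 and 0 of 134 at an unadjusted p under 0.05 for 0.5 Gy against 0 Gy, 1 Gy against 0 Gy and 1 Gy against 0.5 Gy. With all doses fitted, those unadjusted counts reached 14 without 0 Gy array 3, 19 without 0.5 Gy array 1 and 9 without array 1 of every dose. With the replicate block on the arrays of the paired doses alone (0.5 and 1 Gy, added after seeing the data), limma called 0 of 134, with 10 at an unadjusted p under 0.05 and a smallest adjusted p of 0.103. The replicate block changed no call. The median joint share ran from 13.2% with normexp to 24.0% without array 1 of every dose. Of 390 values of the 5 miRNAs' dose differences, 376 moved by less than the spread between arrays and 14 by more, most of them when scaled on all probes. That spread included 0 Gy array 1. The moves of miR-1224-5p without that array, from -0.77 to -0.09 and from -0.79 to -0.12, therefore counted among the 376. With 3 arrays per dose, small differences were not detectable. Larger ones also went uncalled in limma's main fit. For 1 Gy against 0 Gy, miR-3963 differed by 2.00 and miR-6385 by -2.34 log2 units, each at an adjusted p of 0.539.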
